A study of Mus musculus with 284 samples.

Results

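G2/M cells are described here among tumour propagating cells, the CD34+ CD49f+ keratinocytes sorted from chemically induced mouse skin tumours. The cells were selected on their own transcripts: the score of a cell was the mean log2(CPM + 1), with CPM the counts of a cell scaled to a total of 1000000, of 8 genes of late cell cycle and mitosis (Mki67, Top2a, Cdk1, Ccnb1, Birc5, Ube2c, Cenpf and Tpx2). Within each mouse the 25% of cells with the highest score were taken, which gave 70 of 284 cells. These were 17 of 69 cells of wild-type mouse WT1, 22 of 88 of wild-type mouse WT2, 18 of 73 of mouse KO1 and 13 of 54 of mouse KO3. The remaining 214 cells of the same mice, 52, 66, 55 and 41 in that order, are called other cells.

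The animals were C57BL/6 mice carrying ROSA26-LSL-eYFP and Keratin14-Cre, which marks cells of keratin 14 origin by YFP. Tumours were raised with DMBA, a mutagen given once at 8 weeks of age, and TPA, a promoter of tumour growth given for more than 20 weeks. KO1 and KO3 are labelled Sirt6-/-, a loss of the histone deacetylase Sirt6, and WT1 and WT2 wild type. Viable YFP+ CD34+ CD49f+ cells were sorted one per well and sequenced by Smart-seq2, a full-length method without molecular identifiers. The mouse is the replicate, with 2 mice per genotype. Each genotype filled its own plates, and an effect of genotype cannot be told apart from one of plate.

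A cell that has copied its DNA passes through G2 and enters mitosis when CDK1, bound to cyclin B, becomes active. Kinetochores then attach chromosomes to the spindle, the anaphase promoting complex marks cyclin B and securin for destruction, and a contractile ring at the spindle midzone divides the cell. Transcripts of this machinery accumulate through G2 and are repressed in resting cells by the DREAM complex, which is recruited to promoters at a motif called the cell cycle genes homology region (CHR), often beside CCAAT boxes bound by NF-Y. In the epidermis, dividing cells belong to the basal layer, and keratinocytes that leave it turn on suprabasal genes.

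Cells held between 523998.6 and 1684463.8 counts and between 3235 and 8470 detected genes. Krt5 and Krt14, keratins of basal keratinocytes, had counts in 70 of 70 G2/M cells and in all 214 other cells, and Cd34 transcripts were found in 59 of 70 G2/M cells (84.3%) and 148 of 214 other cells (69.2%). G2/M cells had more detected genes per cell, and Cd34 was not higher in their summed counts (both given below). All 7 fibroblast markers were at 0 in G2/M cells. The summed level of 8 immune markers ranged from 4.79 to 44.8 CPM over mice in G2/M cells and from 6.68 to 27.1 CPM in other cells, that of 6 endothelial markers from 5.8 to 10.1 and from 4.94 to 9.28 CPM, and that of 5 melanocyte markers from 0 to 2.02 and from 0.157 to 5.99 CPM. Of these lists 3, 4 and 3 markers, in that order, were at 0 in G2/M cells. The Sirt6 transcript itself stood at 13.8 and 21.3 CPM in the G2/M cells of WT1 and WT2 and at 19.5 and 21.1 CPM in those of KO1 and KO3. A count over the whole gene does not check a deletion of part of it, so the genotypes are given as labelled.

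The score separated the mice as well as the cells. The median score was highest in KO3, at 7.42 in G2/M cells and 4.13 in other cells. It was 6.32 and 2.73 for WT1, 5.93 and 0.73 for WT2, and 5.32 and 1.08 for KO1. The highest other cell of KO3, at 6.16, lay above the median G2/M cell of KO1 and of WT2. Just inside and just outside the limit, scores were 6.27 and 6.16 for KO3, 5.61 and 5.28 for WT1, 4.25 and 3.93 for KO1, and 2.64 and 2.46 for WT2. The lowest G2/M cell of WT2 had counts for 4 of the 8 genes, and that of KO3 for all 8. With 1 limit for all mice (lowest score inside 5.04), KO3 would give 27 cells (50.0%, exact Clopper-Pearson 95% interval 36.1 to 63.9) and KO1 would give 9 (12.3%, 5.8 to 22.1). WT1 would give 21 cells (30.4%, 19.9 to 42.7) and WT2 would give 14 (15.9%, 8.98 to 25.2). These intervals cover counting error only. Both extremes carried the same label: KO1 had the lowest share and KO3 the highest.

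**Figure D1:**
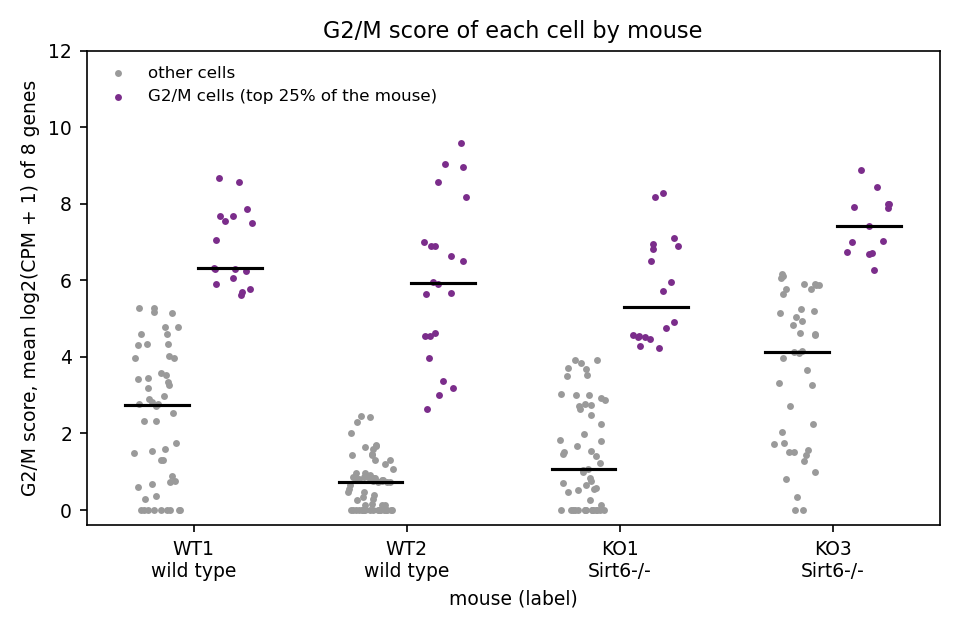
The G2/M score of each of 284 cells (mean log2(CPM + 1) of 8 genes, vertical axis) by mouse, with G2/M cells in purple, other cells in grey and a black line at each median. The grey cells of KO3 reach 6.16, above the purple median of KO1 at 5.32.

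The score genes are described first, with no test, since they chose the cells. Levels are CPM of the summed counts of the cells of a mouse, in the order WT1, WT2, KO1, KO3. Mki67, a coat protein of mitotic chromosomes, stood at 289.8, 293.1, 318.1 and 416.4 CPM in G2/M cells and at 53.1, 14.7, 40.4 and 169.9 CPM in other cells. Top2a, the topoisomerase that untangles sister chromatids, stood at 382.4, 414.2, 346.5 and 528.6 CPM against 61.0, 21.0, 27.1 and 145.1 CPM. G2/M cells of the 4 mice were close to each other for these genes, while other cells differed widely, lowest in WT2 and highest in KO3. Cdk1, the mitotic kinase, was at 210.6, 186.6, 216.9 and 276.7 CPM against 49.8, 5.48, 22.5 and 108.4 CPM. Ube2c, the ubiquitin-conjugating enzyme of the anaphase promoting complex, was at 203.2, 287.2, 68.1 and 380.1 CPM against 18.7, 5.57, 11.3 and 38.9 CPM. KO1 was the low mouse for Ube2c among G2/M cells. Cenpf, a kinetochore protein, was the sparsest of the 8, with counts in 41 of 70 G2/M cells and 16 of 214 other cells. Birc5, or survivin, of the chromosomal passenger complex had counts in all 70 and in 86 of 214.

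Promoter stretches of 5 such genes are shown because they carry the letters by which this gene programme is usually recognised. They come from RefSeq for GRCm38.p6, are read 5′ to 3′ on the gene's strand and end at the base before the RefSeq start site. Capitals mark matches on either strand to the CHR (TTTGAA or TTCGAA) and to CCAAT. Mki67 is shown from chr7:135716380-135716569, minus strand, Top2a from chr11:99024190-99024379, minus strand, and Cdk1 from chr10:69352913-69353052, minus strand. Ccnb2, a mitotic cyclin outside the score, is shown from chr9:70421555-70421734, minus strand, and Cdc20, the activator of the anaphase promoting complex, also outside the score, from chr4:118437344-118437483, minus strand.
Mki67: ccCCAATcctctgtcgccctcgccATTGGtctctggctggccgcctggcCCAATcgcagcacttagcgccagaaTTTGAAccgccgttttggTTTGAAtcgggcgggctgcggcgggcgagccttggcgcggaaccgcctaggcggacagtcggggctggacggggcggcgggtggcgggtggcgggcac
Top2a: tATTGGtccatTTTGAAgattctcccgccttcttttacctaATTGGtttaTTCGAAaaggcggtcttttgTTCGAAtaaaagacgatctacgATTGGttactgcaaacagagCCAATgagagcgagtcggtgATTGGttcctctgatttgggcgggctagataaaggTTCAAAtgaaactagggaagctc
Cdk1: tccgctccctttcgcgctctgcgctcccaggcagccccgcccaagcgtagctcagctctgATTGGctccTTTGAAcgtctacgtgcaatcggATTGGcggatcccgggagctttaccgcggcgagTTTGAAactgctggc
Ccnb2: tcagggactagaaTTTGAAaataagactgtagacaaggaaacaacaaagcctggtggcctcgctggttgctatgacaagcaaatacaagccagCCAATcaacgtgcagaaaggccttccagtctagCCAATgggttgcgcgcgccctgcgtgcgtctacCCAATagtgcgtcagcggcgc
Cdc20: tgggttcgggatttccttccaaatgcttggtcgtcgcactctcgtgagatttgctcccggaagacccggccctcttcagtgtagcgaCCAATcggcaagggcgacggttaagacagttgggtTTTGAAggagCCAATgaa

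The stretch of Top2a held 4 CHR matches and 5 CCAAT matches, and that of Cdk1 held 2 of each. Mki67 had 2 and 3, Ccnb2 1 and 3, and Cdc20 1 and 2. The CHR match shown for Ccnb2 lies before its CCAAT matches. A further CHR match of Ccnb2, at positions 4 to 9 past the start site, falls outside its stretch. Over windows from 250 bases before to 50 bases after the start, 5 of 7 score genes with a window held a CHR match. A CHR match was present in 9 of 14 mitotic cyclins and kinases (64.3%), 24 of 35 spindle genes (68.6%) and 14 of 26 kinetochore genes (53.8%), against 16.4% of 9302 tested genes with a window and 19.2% of all 32851 windows. DNA replication genes held it in 9 of 46 (19.6%). The E2F letters TTTGGCGC or TTTCGCGC showed the other order, in 13 of 46 replication genes (28.3%), 2 of 35 spindle genes (5.71%) and no window of the 14 mitotic cyclins and kinases outside the score, against 1.86% of tested genes and 0.813% of all windows. Among the score genes 1 of 7 held them, Cdk1. CCAAT was found in 43.0% of tested genes and 37.4% of all windows, and in 12 of 14 mitotic cyclins and kinases (85.7%). It was not particular to mitotic lists. Spindle genes held it in 24 of 35 (68.6%), and so did 9 of 13 G1 cyclins and CDK inhibitors (69.2%). All 15 cholesterol synthesis genes with a window held it, and 8 of 21 glycolysis genes (38.1%). A match is a description of letters in this window and not a binding site.

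**Figure D2:**
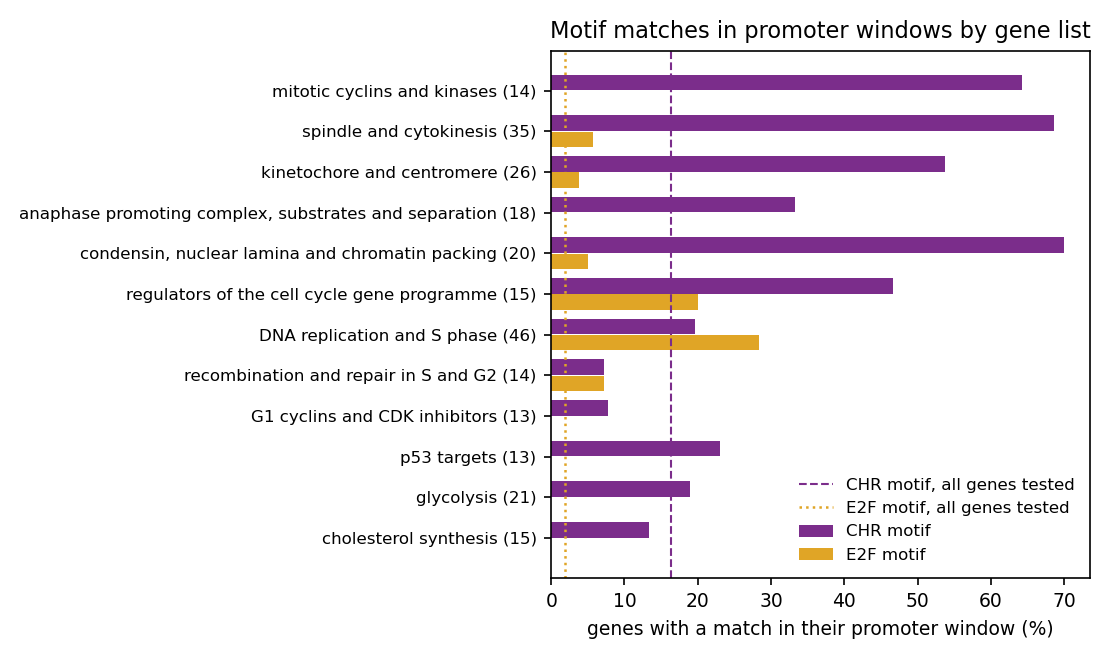
Share of genes (%) in each list with a CHR match (purple) or an E2F match (yellow) in the window around the start site, with the number of genes that have a window in brackets and lines at the shares of all genes tested. Purple bars of the cyclin, spindle, kinetochore and condensin lists lie between 53.8% and 70.0%, that of the anaphase promoting complex list at 33.3%, and the yellow bar is longest for DNA replication, at 28.3%.

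G2/M cells were then set against other cells of the same mouse over 14006 genes outside the score. In edgeR's quasi-likelihood test with the mouse as a block, 0 genes passed an adjusted p of 0.05 (0%), 1277 had an unadjusted p under 0.05, and the smallest adjusted p was 0.319. DESeq2 on the same sums called 277 genes higher (1.98%) and 356 lower (2.54%), and limma-voom called 0. By sign alone, 1337 genes (9.55%) were higher in G2/M cells of 4 of 4 mice and 1456 (10.4%) lower. The mean log2 value per cell tested with limma, against other cells matched on the number of detected genes, put 49 genes higher (0.35%) and 3 lower. G2/M cells also had more detected genes, by 829, 1365.5, 927 and 741 in the order of mice (mean 965.6 ± 277.2, SD, n = 4; exact permutation test over mice, two-sided, p = 0.125, the smallest that 4 mice allow). Total counts differed in both directions, by 14099, 109874.9, 69144.2 and -95249.3 (exact permutation test, p = 0.625). Genes of the mitotic programme vary together with the 8 score genes, so their differences describe the cells that were chosen and are not independent evidence. The values below are edgeR log2 differences, G2/M cells minus other cells, and no gene named below passed the edgeR threshold. For some genes below the groups did not overlap over mice. The share of all genes without overlap was not counted.

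Cyclins and kinases that drive entry into mitosis lay higher as a group. All 20 of 20 listed genes had a positive log2 difference, 18 of them in 4 of 4 mice, with a median of 2.76 against -0.10 over all genes. Plk1, the polo kinase of mitotic entry and spindle poles, stood at 210.0, 103.9, 102.9 and 258.4 CPM in G2/M cells and 13.3, 1.24, 11.4 and 40.0 CPM in other cells. Ccna2, cyclin A, stood at 211.4, 154.7, 167.2 and 126.6 CPM against 38.2, 3.6, 22.3 and 62.7 CPM. Groups did not overlap over mice for either gene. Both belong to the programme of the score genes that chose the cells, and the share of all genes without overlap was not counted. Ccnb2 showed 172.1, 165.2, 112.5 and 143.7 CPM against 65.1, 7.66, 52.7 and 100.2 CPM, with other cells of KO3 close below G2/M cells of KO1. Cks1b, a small subunit of CDK complexes, was at 172.5, 176.2, 166.4 and 295.1 CPM against 98.8, 45.0, 76.0 and 165.0 CPM. The 2 genes that did not keep the sign in 4 mice, named after their values were seen, were Cdc25b, a phosphatase that activates CDK1, and Wee1, the kinase that restrains it. Both were lower in G2/M cells of KO1 only, by 0.17 and 0.54 on the log2(CPM + 1) scale. DESeq2 called 16 of the 20 higher and the matched limma fit 8, Plk1, Ccna2 and Ccnb2 among them.

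Spindle and cytokinesis genes were the most uniform list: 38 of 38 lay higher in 4 of 4 mice, with a median log2 difference of 2.96. DESeq2 called 34 of them higher and the matched limma fit 18. Prc1, which bundles microtubules at the spindle midzone (GRCm38 chr7:80294450-80316259, plus strand), had the smallest edgeR p of all genes. It stood at 200.8, 254.3, 126.7 and 304.1 CPM in G2/M cells and 19.5, 16.8, 15.5 and 51.7 CPM in other cells, a log2 difference of 3.17 ± 0.24 (SE, n = 4 mice; edgeR adjusted p = 0.319). Hmmr, a spindle pole protein, stood at 121.0, 102.4, 102.3 and 145.9 CPM against 17.4, 6.01, 16.5 and 18.8 CPM. Racgap1, of the centralspindlin complex, stood at 282.7, 183.2, 112.0 and 248.5 CPM against 44.8, 20.7, 28.7 and 67.3 CPM. In these 3 genes, named by smallest p, the lowest G2/M value was above the highest other value. Such a choice favours genes whose groups do not overlap. Kif2c, a microtubule depolymerase, had counts in 39 of 70 G2/M cells and 17 of 214 other cells and a log2 difference of 3.73 ± 0.49. Aspm, which acts at spindle poles, had counts in 29 and 10 cells and a log2 difference of 4.39 ± 0.57. Dlgap5 and Knstrn, spindle proteins, differed by 2.60 ± 0.34 and 1.38 ± 0.16. Their differences were positive in 4 of 4 mice.

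The abundant tubulins moved by smaller steps. Tuba1b stood at 2002.7, 1593.0, 2036.1 and 2083.2 CPM in G2/M cells and 942.4, 288.5, 737.8 and 1307.3 CPM in other cells. Tubb5 stood at 1804.4, 1918.0, 1923.1 and 1858.5 CPM against 880.8, 554.3, 923.2 and 1126.6 CPM. The G2/M values of Tubb5 lay within a narrow range over the 4 mice. Tubb4b differed by 1.17 ± 0.16 and Tuba1c by 0.70 ± 0.15. Tubb4b-ps1, a processed pseudogene, was among the genes of smallest p with 1.12 ± 0.15, but its reads cannot be told apart with certainty from those of Tubb4b.

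Kinetochore and centromere genes were higher in 31 of 31 cases and in 4 of 4 mice for 27, with a median log2 difference of 1.99. Incenp, the scaffold of the chromosomal passenger complex, stood at 125.9, 143.1, 154.1 and 148.4 CPM against 32.0, 23.9, 27.0 and 67.7 CPM. Cdca8, of the same complex, stood at 168.2, 145.9, 143.2 and 228.5 CPM against 56.9, 12.4, 21.5 and 108.9 CPM. Cenpa, the centromeric histone, differed by 1.34 ± 0.43, and Hjurp, its chaperone, by 0.35 ± 0.12. The 4 genes without a positive difference in every mouse, named after their values were seen, were Cenpi, Cenpp, Cenpt and Sgo2a, and each was lower in G2/M cells of KO3 alone. DESeq2 called 21 of the list higher and the matched limma fit 8.

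Genes of the anaphase promoting complex differed unevenly. Cdc20, its activator, stood at 495.9, 428.5, 350.8 and 706.8 CPM in G2/M cells and 162.8, 48.0, 117.7 and 336.6 CPM in other cells, a log2 difference of 1.79 ± 0.34. The core subunit Anapc5 was at 310.4, 242.5, 306.9 and 241.9 CPM against 229.1, 280.5, 262.3 and 262.5 CPM, a log2 difference of 0.04 ± 0.14. Of other core subunits, Anapc2 differed by 0.18 ± 0.15 and Cdc16 by 0.64 ± 0.20, the latter positive in 4 of 4 mice. Over the whole list 15 of 19 genes had a positive difference, 8 of them in 4 of 4 mice, with a median of 0.33. DESeq2 called 4 of them higher, named after their values were seen: Cdc20, Fzr1, the second activator of the complex, Fbxo5, its inhibitor, and Espl1, separase. The matched limma fit called 0. Pttg1, securin, which the complex destroys to free separase, was named after its value was seen, with a log2 difference of -0.21.

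Condensin, lamina and chromatin packing genes lay higher in 26 of 26 cases and in 4 of 4 mice for 23, with a smaller median of 0.85. Smc4, a condensin ATPase, stood at 203.7, 182.0, 215.5 and 256.3 CPM in G2/M cells and 85.8, 53.2, 63.2 and 129.6 CPM in other cells. Ncaph, which closes the condensin ring, stood at 121.9, 109.3, 131.1 and 103.0 CPM against 33.3, 17.9, 24.4 and 36.6 CPM. Groups did not overlap for either, and both were named by smallest p, which favours this. H2afx, the histone variant phosphorylated at DNA breaks, differed by 1.59 ± 0.20 and H2afz by 0.84 ± 0.25. Among canonical histones 36 of 42 tested genes were higher, 24 in 4 of 4 mice. Hist1h2ap stood at 66.3, 36.0, 66.2 and 80.4 CPM against 11.2, 0.804, 3.05 and 39.6 CPM, and Hist1h2bc differed by -0.07 ± 0.19. Poly(A) selection favours the few histone transcripts that carry a tail, so these are not levels of all histone RNA.

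**Figure D3:**
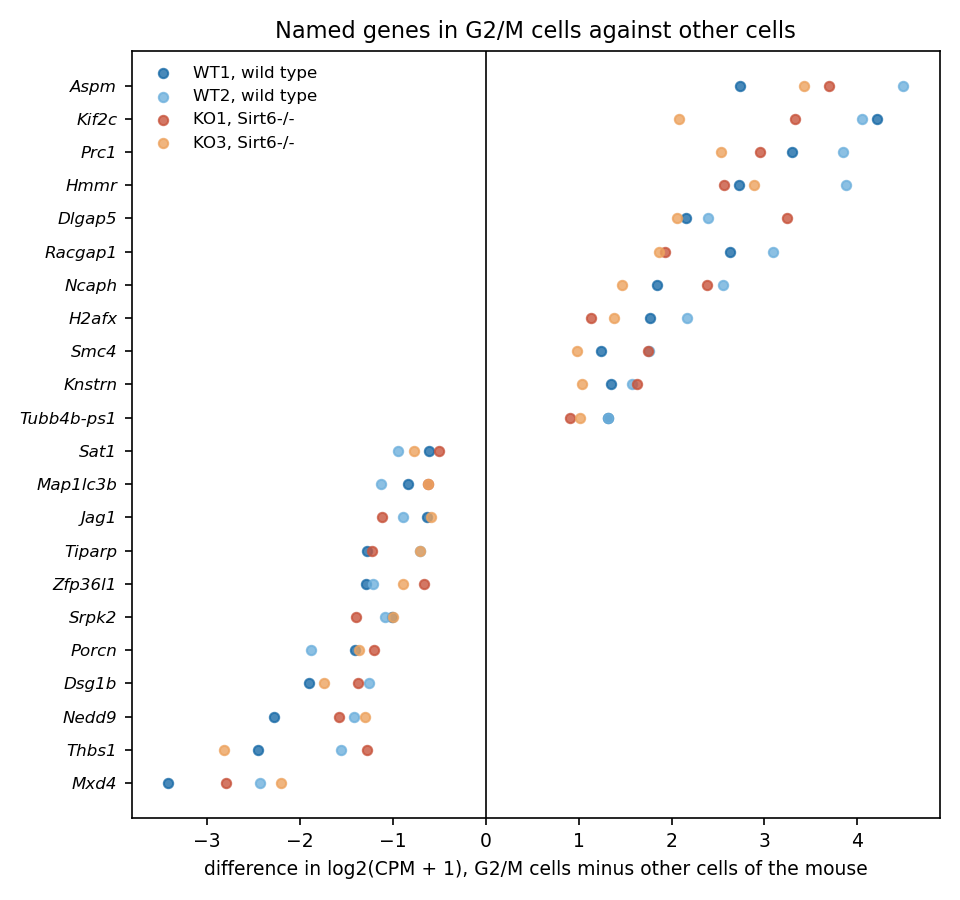
Difference in log2(CPM + 1) between G2/M cells and other cells of each mouse (horizontal axis) for 11 of the 12 genes of smallest p that were higher and 11 of the 12 that were lower, 1 point per mouse. Points of Prc1 lie between 2.53 and 3.84, and points of Mxd4 between -3.41 and -2.20.

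Among regulators of the programme the direction varied by mouse. Of 19 genes 16 had a positive difference, but only 6 in 4 of 4 mice, and the median was 0.73. Nfyb, a subunit of the CCAAT-binding factor NF-Y, stood at 48.4, 58.1, 80.0 and 63.0 CPM in G2/M cells and 36.2, 32.3, 26.0 and 14.9 CPM in other cells. Its partner Nfyc differed by 0.48 ± 0.20. Rbl1, the pocket protein p107, stood at 59.6, 55.4, 71.5 and 35.2 CPM against 43.1, 18.5, 28.9 and 30.7 CPM. DESeq2 called 4 of the 19 higher and these were, named after their values were seen, Nfyb, Foxm1, Mybl2 and Lin54. Foxm1, the activator of late mitotic genes, stood at 52.1, 27.0, 29.4 and 22.8 CPM against 9.07, 4.11, 11.7 and 11.9 CPM. Mybl2, its partner at CHR promoters, stood at 44.8, 29.2, 54.1 and 16.4 CPM against 15.4, 5.6, 12.9 and 14.3 CPM, close together in KO3.

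DNA replication genes split the mice, whose score limits also differed, from 2.64 in WT2 to 6.27 in KO3. With 1 limit for all mice, 14 of the 41 other cells of KO3 would lie inside it. How far the limits shaped the split was not tested. Over 57 genes the median difference in log2(CPM + 1) was largest in WT2, at 2.14, then 1.31 for KO1, 0.30 for WT1 and -0.25 for KO3, and 17 of the 57 were higher in 4 of 4 mice. Rrm2, the inducible subunit of ribonucleotide reductase, stood at 532.7, 682.8, 753.3 and 283.9 CPM in G2/M cells and 315.5, 30.0, 182.5 and 530.7 CPM in other cells. Mcm6, of the replicative helicase, stood at 323.3, 537.6, 382.2 and 226.2 CPM against 329.1, 137.1, 208.6 and 349.1 CPM. Both genes were higher in other cells than in G2/M cells of KO3. Rrm1 was at 1025.5, 854.4, 882.2 and 738.9 CPM against 483.3, 215.9, 359.0 and 724.5 CPM. Recombination and repair genes repeated this order, with medians of 0.35, 2.62, 1.32 and -0.26. Without WT2 the edgeR median of the replication list went from 0.84 to 0.40, and without KO3 to 1.29.

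The same split was visible cell by cell. A mitotic level, the mean log2(CPM + 1) of the 108 genes of the cyclin, spindle, kinetochore and anaphase promoting complex lists, had medians of 4.69, 4.15, 4.02 and 4.87 in G2/M cells and 2.07, 1.23, 1.67 and 2.68 in other cells. The S-phase level, the same mean over the 57 replication genes, had medians of 5.20, 5.84, 6.00 and 4.17 in G2/M cells and 3.75, 1.45, 2.44 and 4.42 in other cells. G2/M cells ranged from 1.49 to 7.19 in S-phase level in WT2 and from 2.00 to 6.09 in KO3, so cells with few and with many replication transcripts both scored high. In other cells of KO3 the S-phase level reached 6.99. The mitotic level of some G2/M cells lay below that of the highest other cell of their mouse: 4 of 17 for WT1, 4 of 22 for WT2, 6 of 18 for KO1 and 6 of 13 for KO3. The lowest were 1.83 in WT2 and 2.29 in KO1, with S-phase levels of 3.56 and 1.93. Other G2/M cells of low mitotic level had a high S-phase level, such as 2.09 with 5.30 in WT2 and 2.365 with 6.21 in KO1. Counts for at least 4 of 6 further mitotic genes (Plk1, Cdc20, Ccnb2, Aurka, Cenpe and Kif20a) were found in 16 of 17 G2/M cells of WT1, 12 of 22 of WT2, 13 of 18 of KO1 and 12 of 13 of KO3. Among other cells the numbers were 9 of 52, 0 of 66, 5 of 55 and 18 of 41. The share of chosen cells was thus high in WT1 and KO3 (94.1% and 92.3%) and lower in KO1 (72.2%). It was lowest in WT2, at 54.5% (exact Clopper-Pearson 95% interval 32.2 to 75.6). In KO3 18 other cells also had counts for at least 4 of the 6 genes. The 0 of 66 allows a share of up to 5.44% (exact Clopper-Pearson 95% interval).

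**Figure D4:**
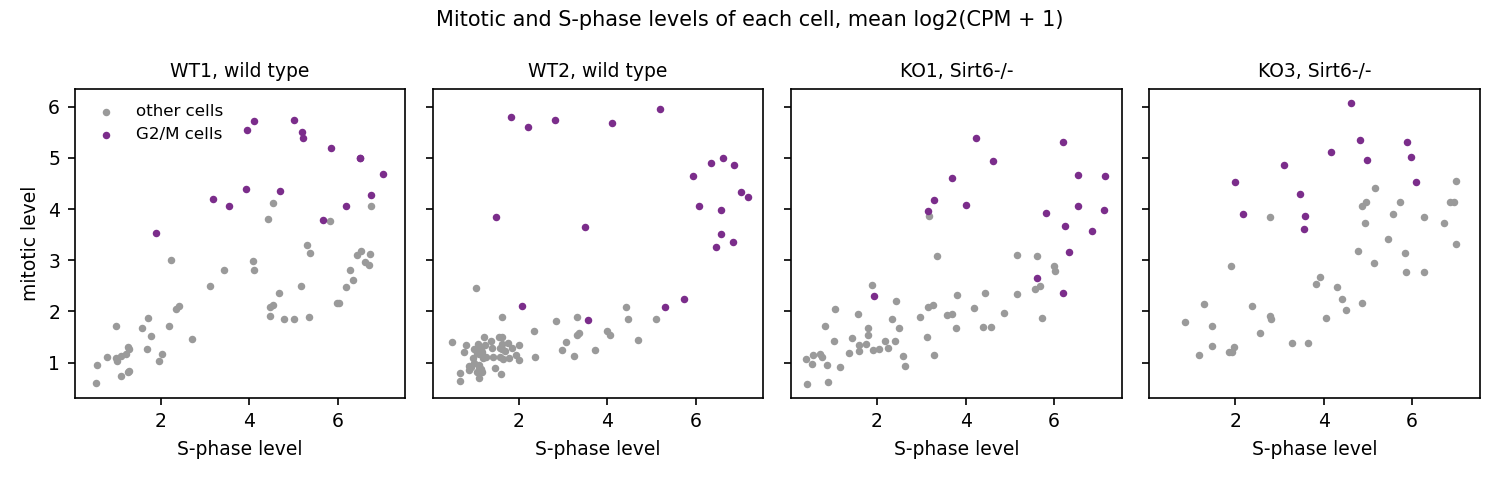
S-phase level (horizontal axis) and mitotic level (vertical axis), both mean log2(CPM + 1), of each cell in the 4 mice, G2/M cells in purple and other cells in grey. Purple cells start at an S-phase level of 1.49 and reach 7.19, some purple cells of each mouse lie below its highest grey cell in mitotic level, and grey cells of KO3 extend to an S-phase level of 6.99.

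Genes of G1 went both ways, with 2 of 15 higher and 3 lower in 4 of 4 mice. Cyclin D1, Ccnd1, which drives G1, stood at 280.7, 147.1, 262.3 and 155.0 CPM in G2/M cells and 281.6, 139.9, 265.3 and 176.6 CPM in other cells, a log2 difference of -0.08 ± 0.09. Cdk4 differed by 0.10 ± 0.10, Cdk6 by 0.06 ± 0.10 and Cdkn1a, the CDK inhibitor p21, by -0.15 ± 0.16. For each of these 4 genes the values of both groups overlapped over mice. DESeq2 called 1 gene of the list each way, named after their values were seen: Cdkn2d, a CDK inhibitor, at 1.15 ± 0.32, and Ccnd2, cyclin D2, at -0.96 ± 0.32. The list had a median of -0.14. The 18 p53 targets had a median of -0.21, and DESeq2 called 2 of them higher, Aen at 0.37 ± 0.09 and Phlda3 at 0.43 ± 0.11, also named after their values were seen.

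The 12 lower genes of smallest p were led by Porcn, the acyltransferase needed for WNT secretion (GRCm38 chrX:8193848-8206525, minus strand). It stood at 58.7, 29.1, 75.9 and 28.7 CPM in G2/M cells and 156.4, 110.0, 175.6 and 75.4 CPM in other cells, a log2 difference of -1.53 ± 0.17 (SE, n = 4 mice; edgeR adjusted p = 0.345). Mxd4, a MAX partner that opposes MYC, stood at 0.807, 4.41, 1.63 and 0.773 CPM against 18.2, 28.1, 17.2 and 7.16 CPM, and 7 of 70 G2/M cells had counts for it against 73 of 214 other cells. Groups did not overlap for Mxd4, which the choice by p favours. Jag1, a Notch ligand, differed by -0.85 ± 0.13, Zfp36l1, an mRNA decay factor, by -1.07 ± 0.16, Sat1, a polyamine acetyltransferase, by -0.75 ± 0.11, and Map1lc3b, of autophagosomes, by -0.85 ± 0.13. The kinase Srpk2 differed by -1.19 ± 0.16 and Tiparp, an ADP-ribosyltransferase, by -1.03 ± 0.15. Nedd9, a focal adhesion scaffold, differed by -1.72 ± 0.22 and Thbs1, thrombospondin 1, by -2.07 ± 0.28. These last 2 turned positive in the mean log2 value per cell against matched other cells, at 0.37 and 0.43. Cxcl12, a chemokine, had counts in 1 G2/M cell and 18 other cells. DESeq2 called all 12 lower, and the limma fit, which changed both the value and the comparison cells, called none of them. In edgeR on sums with other cells matched on detected genes, 10 of the 11 that could be fitted stayed negative but most came closer to 0: Porcn differed by -0.46, Jag1 by -0.36, Thbs1 by -0.21 and Mxd4 by -2.71, while Nedd9 turned to 0.26. No gene passed in that edgeR fit, with 848 at an unadjusted p under 0.05.

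Keratinocyte genes leaned lower in the summed counts, without a call by edgeR. Among 19 suprabasal genes 17 had a negative difference, 8 of them in 4 of 4 mice, and the median was -1.43. Medians by mouse in log2(CPM + 1) were smaller, at -0.33, -0.55, -1.37 and -0.53. The median cell went the other way: the mean log2(CPM + 1) of the list was 1.74, 1.37, 1.91 and 3.2 in G2/M cells and 1.48, 0.94, 1.67 and 2.55 in other cells. Dsg1b, a desmosomal cadherin, stood at 8.32, 11.5, 5.62 and 23.1 CPM in G2/M cells and 33.8, 28.6, 16.1 and 79.2 CPM in other cells. Ly6d, a surface marker of stratified epithelium, stood at 418.6, 307.7, 377.4 and 1133.9 CPM against 504.3, 452.3, 695.0 and 1344.2 CPM. Each mouse had the lower value in G2/M cells for both genes, while the differences between mice were larger. Krtdap differed by 0.07 ± 0.13 and Spink5, a protease inhibitor, by 0.30 ± 0.41, which was -1.73 in the matched limma fit. DESeq2 called 5 of the 19 lower, and the mean log2 value per cell gave a median of -0.11 with all other cells and -0.97 with matched ones. The basal list had 17 of 17 negative differences but only 6 of them in 4 of 4 mice, and a median of only -0.33. Its medians by mouse in log2(CPM + 1) were 0.03, -0.31, -0.21 and -0.27. Krt14 stood at 26883.7, 29786.6, 19774.1 and 25148.8 CPM against 22170.1, 30259.8, 21272.2 and 26854.9 CPM, and Krt5 differed by -0.08 ± 0.07. Col17a1, a hemidesmosomal collagen, was the largest of the 4 basal genes of highest level, at -0.67 ± 0.13, and stood at 1.01 in the matched limma fit. With matched other cells the basal median was -0.05, and mean log2 values per cell turned it positive, at 0.08 with all other cells and 0.55 with matched ones.

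**Figure D5:**
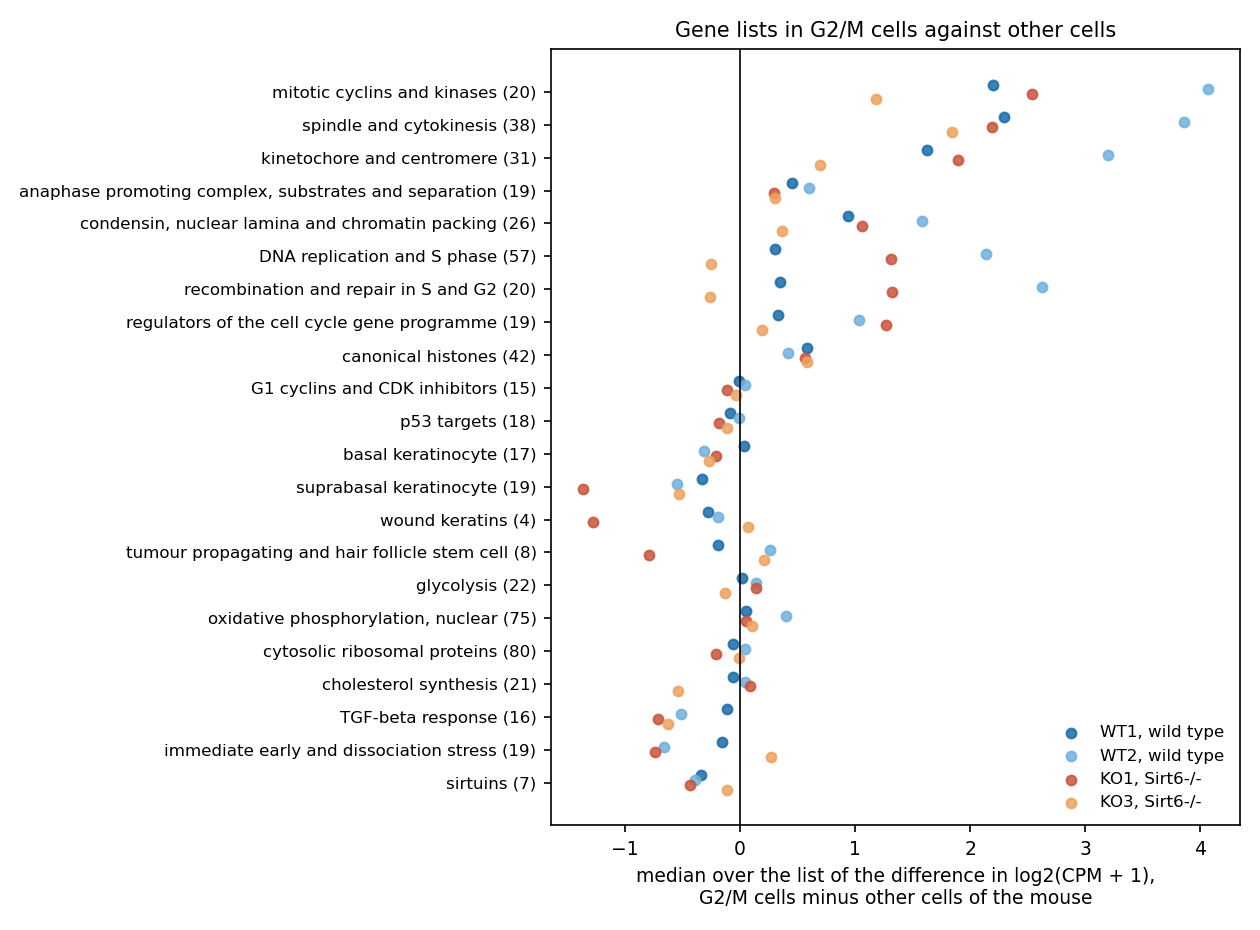
Median over each gene list of the difference in log2(CPM + 1), G2/M cells minus other cells of the mouse (horizontal axis), 1 point per mouse, with the number of genes tested in brackets. Spindle genes lie between 1.84 and 3.86, replication genes between -0.25 and 2.14, and suprabasal genes below 0 in the 4 mice.

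Metabolic lists had medians near that of all genes, and stress lists lay lower in the summed counts, though not in every mouse or in the median cell. The 3 genes that the matched limma fit called lower, named after their values were seen, were Krt6b, a keratin of wounded epidermis, and the immediate early genes Fos and Dusp1. Krt6b stood at 1548.9, 431.4, 599.7 and 3865.9 CPM in G2/M cells and 2912.1, 548.5, 2044.5 and 4311.9 CPM in other cells, lower in each mouse. Its matched difference was -1.36 (limma adjusted p = 0.0296), and those of Fos and Dusp1 were -0.57 and -0.76. Glycolysis genes had 9 positive and 13 negative differences of 22 and a median of -0.02, and Ldha, lactate dehydrogenase, differed by 0.21 ± 0.09. DESeq2 called 3 of them lower, named after their values were seen: Hk2, hexokinase 2, Slc2a1, the glucose transporter GLUT1, and Pfkfb3. Nuclear genes of oxidative phosphorylation had a median of 0.10 over 75 genes, 19 of them higher in 4 of 4 mice. Ribosomal protein genes had a median of -0.10 over 80 genes, and cholesterol synthesis -0.14 over 21. Immediate early genes had a median of -0.42, and DESeq2 called 2 of 19 lower. In the summed counts Fos, Jun and Dusp1, the 3 of them named here, were higher in G2/M cells of KO3. Medians of this list by mouse were -0.16, -0.66, -0.74 and 0.27 in log2(CPM + 1). Its mean in the median cell was 7.71, 7.74, 6.68 and 7.28 in G2/M cells and 7.34, 8.58, 7.57 and 7.31 in other cells. The TGF-beta list had a median of -0.35, which turned to 0.07 with matched other cells and to 0.03 with mean log2 values per cell. Stem cell genes had a median of -0.33 over 8 tested genes, with Cd34 itself at -0.16 ± 0.11. Wound keratins had a median of -0.46 over 4 genes, with KO1 lowest. In the median cell their mean log2(CPM + 1) was 10.34, 8.29, 8.56 and 11.79 in G2/M cells and 9.75, 7.94, 8.94 and 10.95 in other cells. By that measure only KO1 was lower. The 7 sirtuins had a median of -0.41, with 2 of them lower in 4 of 4 mice, and Sirt6 differed by -0.18 ± 0.33. In the median cell the sirtuin mean was 1.79, 2.2, 2.04 and 1.95 in G2/M cells and 1.99, 1.9, 1.63 and 1.91 in other cells. By that measure only WT1 was lower.

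The labelled genotypes were compared within G2/M cells, over 13249 genes. Score genes were included, although they chose the cells and the score limit differed by mouse, from 2.64 for WT2 to 6.27 for KO3. In edgeR 0 genes passed (0%), with 687 at an unadjusted p under 0.05 and a smallest adjusted p of 0.738, while DESeq2 called 37 higher and 90 lower in mice labelled Sirt6-/- and limma-voom 0. Both KO mice lay above both wild-type mice for 2295 genes (17.3%) and below them for 2224 (16.8%). The mitotic lists showed no common shift among cells chosen with these limits. Medians, Sirt6-/- minus wild type, were 0.03 for cyclins and kinases, -0.09 for spindle genes and -0.08 for kinetochore genes. Of 38 spindle genes, 1 had both KO mice above and 6 had both below. Score genes such as Mki67 differed by 0.30 and Cenpf by -1.02. The limit of each mouse shapes the level of the score genes and of genes that vary with them. These values therefore cannot decide whether the labelled genotypes differ in mitotic genes. With 2 mice per genotype the list medians also have no test of their own.

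The genes of smallest p between the labelled genotypes, none of which passed in edgeR, were as follows. Ptgs2, the inducible cyclooxygenase, stood at 259.9 and 289.1 CPM in G2/M cells of WT1 and WT2 and at 63.5 and 75.1 CPM in those of KO1 and KO3, a log2 difference of -2.02. Icam1, an adhesion molecule, stood at 126.9 and 217.0 against 36.3 and 33.5 CPM, and Tnc, the matrix protein tenascin C, at 146.9 and 302.9 against 34.1 and 32.9 CPM. The choice by p favours genes whose labelled genotypes do not overlap, as here. Crispld2 stood at 78.4 and 63.4 against 0.48 and 0.0 CPM. Higher in mice labelled Sirt6-/- were Smpdl3b, a lipid-modulating phosphodiesterase, at 147.5 and 110.4 against 32.0 and 21.3 CPM, Faf1, a ubiquitin-binding factor, at 51.6 and 36.9 against 6.36 and 8.29 CPM, and Krt79, a keratin of the hair follicle opening, at 27.1 and 40.0 CPM, with no counts in the G2/M cells of WT1 and WT2. Krt79 counts came from 5 of the 70 cells. Tdg-ps, a pseudogene whose reads may be shared with Tdg, stood at 82.5 and 54.4 against 4.09 and 3.38 CPM. The difference of Tdg-ps was not confined to G2/M cells: other cells of WT1 held 3.37, WT2 2.09, KO1 52.2 and KO3 55.0 CPM. For Tnc these values were 172.2, 283.0, 52.8 and 43.3 CPM. Icam1, Crispld2, Smpdl3b and Krt79 also kept their order of labelled genotypes in other cells. Ptgs2 (212.7, 194.9, 148.4 and 197.5 CPM) and Faf1 (12.3, 23.8, 13.7 and 9.11 CPM) overlapped there. Within G2/M cells the TGF-beta list had a median of -1.42, with 8 of 16 genes below in both KO mice. The basal list had -0.59, with 10 of 17 below. Canonical histones had a median of 0.64, with 18 of 44 above in both KO mice, and oxidative phosphorylation 0.20, with 30 of 75 above. Plate cannot be told apart from genotype in any of these.

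Whether the contrast of G2/M and other cells itself differed between genotypes was tested as an interaction over 16310 genes. Again 0 genes passed in edgeR (0%), 479 had an unadjusted p under 0.05 and the smallest adjusted p was 1.0, and DESeq2 called 25 in one direction and 52 in the other. Ptgs2 had the smallest p: G2/M cells exceeded other cells by 0.29 and 0.57 in log2(CPM + 1) in WT1 and WT2 and lay below them by 1.21 and 1.38 in KO1 and KO3. Trim47, a ubiquitin ligase, and Klk10, a kallikrein protease, showed the same order of signs. Utp18, of ribosome assembly, Faf1 and Telo2, which stabilises PI3K-related kinases, showed the reverse. Telo2 differed by -2.08, -1.44, 1.02 and 0.77 in log2(CPM + 1) in the order of mice. Zfp113 and Gem, the other 2 genes named by p, had counts in only 6 and 9 G2/M cells.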

How the data were processed

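Each of the 284 cells of 4 mice was 1 library. Values are expected counts for each gene, as deposited, which the authors made with STAR and RSEM on GRCm38 (mm10), per the submitters' processing notes, where no version is given. Counts were not normalized. Symbols came from a table of gene names, and 390 of 54247 gene identifiers without one (0.606% of counts) stayed unnamed. Cells were scored as described, and counts were summed by mouse and status and rounded. edgeR 4.0.16 (TMM, filterByExpr, quasi-likelihood, mouse as a block) was the main test, with Benjamini-Hochberg adjustment over all genes tested and calls at 0.05. DESeq2 1.42.0, limma 3.58.1, other filters, member limits, matched or thinned cells (500000 counts) and leaving out each mouse were alternatives. Scripts were tested on simulated data. Named genes were those with the smallest p and the same sign in 4 mice (12 each way, at least 10 CPM), up to 4 of highest level per list, 4 each way per genotype test, and the score genes; 1 gene named by the rule is not reported here. Members and lists were chosen with earlier results of these data known. Nothing says how many tumours each mouse gave, and no doublet caller was run on these sorted single wells.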

Additional observations from a re-analysis of the deposited data

How the results depend on the processing

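Of 479 refits of the 24 genes of smallest p in the contrast of G2/M and other cells, 414 kept direction and side of the threshold, 62 kept direction and passed it, and 3 reversed: Nedd9 with other cells matched on detected genes (0.26 by edgeR and 0.37 by mean log2 value) and Thbs1 by the latter (0.43). The count of 0 genes in edgeR held without the scaling, without the filter, with thinned or matched cells, with other member limits and without each mouse (0 to 0). It became 633 with DESeq2 (277 higher, 356 lower), 1 with at least 10 CPM in 2 sums (Prc1), 646 with mean log2 values per cell (637 higher, 9 lower), 771 with those of thinned cells (761 and 10) and 52 with matched cells (49 and 3). Mean log2 values shift the median of all genes to 0.22, and to 0.06 with matched cells. The mean log2 comparisons with matched or thinned cells, and the one with low-score cells, were chosen after seeing the data. DESeq2 gave 77 interactions and 127 genotype differences in place of 0, and leaving out each mouse gave 0 to 0. The gain in detected genes ranged from 832.3 to 1040.5 without each mouse. The difference in total counts, 24467.2 on average, ranged from -4002.1 (without WT2) to 64372.7. No paired analysis across genotypes was made, because the labels do not pair mice of different genotypes. Without the mouse block edgeR called 0. The causes were not tested. Aspm had counts in 29 of 70 G2/M cells, and in 28 after thinning.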
